A study of Mus musculus with 10 samples.

Results

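A set of 9 genes of retinoid handling and aldehyde metabolism were followed through lens epithelia of wild-type mice and of mice that overexpress TGF-β1 in the lens. They were Stra6, Rdh10, Aldh1a1, Aldh1a2, Aldh1a3, Aldh3a1, Crabp1, Crabp2 and Rlbp1, taken by their symbols as 9 of the 50763 gene rows of the count table. The samples were lens epithelia of 3-week-old mice of the FVB/N background, and every library was made from a pool of animals. WT pools came from up to 9 mice (3 libraries), pools of the OVE853 line from 9 mice each (3 libraries) and pools of the OVE918 line from 7 mice each (4 libraries). Mice of both lines carry a secreted, constitutively active human TGF-β1 under the mouse αA-crystallin promoter, which drives it in the lens, and the pooled lenses had anterior subcapsular plaques; the WT mice carry no transgene. No agent was given to any group.

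Retinol reaches cells bound to a carrier protein in blood and can enter them through a membrane receptor. Inside the cell, retinol dehydrogenases turn it into retinaldehyde, retinaldehyde dehydrogenases turn that into retinoic acid, and retinoic acid acts through nuclear receptors on the transcription of target genes, while small cytosolic proteins hold the retinoids. Aldehyde dehydrogenases are also known in the anterior eye as abundant enzymes that clear aldehydes formed by light and oxidation. Cellular retinaldehyde-binding protein, in contrast, is known from the visual cycle of retinal pigmented epithelium and Müller glia.

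Library totals ran from 24073311 to 28645174 assigned read pairs in WT, from 27409730 to 31908525 in OVE853 and from 25342220 to 28562553 in OVE918. The row of mouse Tgfb1 holds, as the paper states, endogenous reads together with cross-mapped reads of the human transgene. It gave 50.6 to 61.7 CPM (read count scaled by the TMM-adjusted size of the library) in WT, 339 to 361 in OVE853 and 715 to 881 in OVE918, so each library sat on the side its label gives. All 8 lens epithelium markers had counts in each library (summed level 104335 to 196031 CPM), and 1 of them, the gap junction gene Gja1, was called lower in both lines. The crystallin genes Cryaa and Cryab carried nearly all of that sum, with means of 116591 and 37052 CPM in WT, so it says little of the other markers. WT replicate 3 stood apart from the other WT libraries. Its summed level of 9 retinal neuron markers was 692 CPM against 61.5 and 75.6 CPM in the other WT pools and 11.7 to 99.5 CPM in the transgenic pools, and its 5 endothelial markers summed to 178 CPM against 37.0 and 42.9 CPM there and 21.5 to 44.9 CPM in the transgenic pools. The endothelial sum was carried by Kdr (113 CPM) and Flt1 (63.4 CPM), whereas Pecam1, Cdh5 and Cldn5 were lower in this library than in the other WT pools and had higher means in both lines than in WT. Calls that were lost without this library, and printed fold changes that moved by over 1.5 times, are given with and without it.

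The 250 bases upstream of a transcription start are shown for 3 of the genes because they stand for the 3 kinds of behaviour described below: Stra6 was elevated, Rlbp1 was reduced, and Aldh1a1 was abundant and differed little. The sequences come from RefSeq on GRCm38.p6, an older build than the GRCm39 of the count table, and the table held 5 of the 9 genes (Stra6 with several starts, of which the most upstream is shown, and Aldh1a1 with more than 1, of which the more downstream is shown). Each is written 5′ to 3′ on the gene's strand, and capitals mark matches to the motifs searched.
Stra6, chr9:58128838-58129087, plus strand: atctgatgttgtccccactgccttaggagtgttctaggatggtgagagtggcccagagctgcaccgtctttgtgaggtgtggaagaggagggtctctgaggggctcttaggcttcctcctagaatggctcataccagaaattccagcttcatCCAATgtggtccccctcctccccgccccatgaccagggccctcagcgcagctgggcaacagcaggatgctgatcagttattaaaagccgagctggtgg
Rlbp1, chr7:79387028-79387277, minus strand: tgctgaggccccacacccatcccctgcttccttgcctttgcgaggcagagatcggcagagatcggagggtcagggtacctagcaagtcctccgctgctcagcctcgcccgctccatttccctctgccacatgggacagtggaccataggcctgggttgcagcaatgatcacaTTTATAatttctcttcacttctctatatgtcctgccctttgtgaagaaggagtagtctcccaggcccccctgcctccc
Aldh1a1, chr19:20601718-20601967, plus strand: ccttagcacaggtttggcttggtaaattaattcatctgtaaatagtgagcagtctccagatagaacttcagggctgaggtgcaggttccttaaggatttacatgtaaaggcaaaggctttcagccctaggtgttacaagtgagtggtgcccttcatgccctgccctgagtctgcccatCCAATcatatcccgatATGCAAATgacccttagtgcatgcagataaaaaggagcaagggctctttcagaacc
The motifs were AGGTCA, which is the unit of retinoic acid response elements, its direct repeats with 2 or 5 bases between the units, the SMAD palindrome GTCTAGAC, the AP-1 motif TGANTCA, the TATA box motif TATAAA, the CCAAT box and the octamer ATGCAAAT. Each was searched on both strands, and no matches overlapped in the windows shown. Stra6 held CCAAT 98 to 94 bases before its start, a motif found in 33.8% of all 32851 windows of the same length. Rlbp1 held TATAAA on the opposite strand 78 to 73 bases before its start, where 12.4% of windows hold it. Aldh1a1 held CCAAT 72 to 68 bases before its start and the octamer, a motif of 1.6% of windows, 56 to 49 bases before it. The Aldh1a2 window also held CCAAT as well as the octamer. In the more upstream Aldh1a1 window, which is not shown, the AP-1 motif TGANTCA lay 57 to 51 bases before the start. This motif is in 6.75% of windows. AGGTCA, present in 14.0% of windows, was in none of the 9 windows of the 5 genes, which says only that these letters are not there.

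Measured across the 9 genes, Stra6 and Crabp2 were elevated in both lines, Aldh3a1 and Rlbp1 were reduced in both, Aldh1a3 and Crabp1 were called lower in OVE918, Rdh10 and Aldh1a1 had lower values short of the fold limit, and Aldh1a2 was near the limit of detection. To be called, a gene had to reach an FDR (Benjamini-Hochberg) of 0.05 or lower in edgeR's quasi-likelihood test with a log2 fold change of 1 or more in either direction. Of the 9 genes, 6 were among the 11097 that passed the expression limit of 2 FPKM (CPM per kilobase of exon) in 5 of the 10 libraries. Stra6 and Crabp2 passed through the transgenic libraries alone, with at least 2 FPKM in 7 of 7 of these and 0 of 3 WT libraries, so their difference is in part built into that filter. The remaining 3 genes, Aldh1a2, Aldh1a3 and Crabp1, were tested among 18058 genes kept by filterByExpr, a filter on counts that does not use gene length and that kept all 9.

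**Figure D1:**
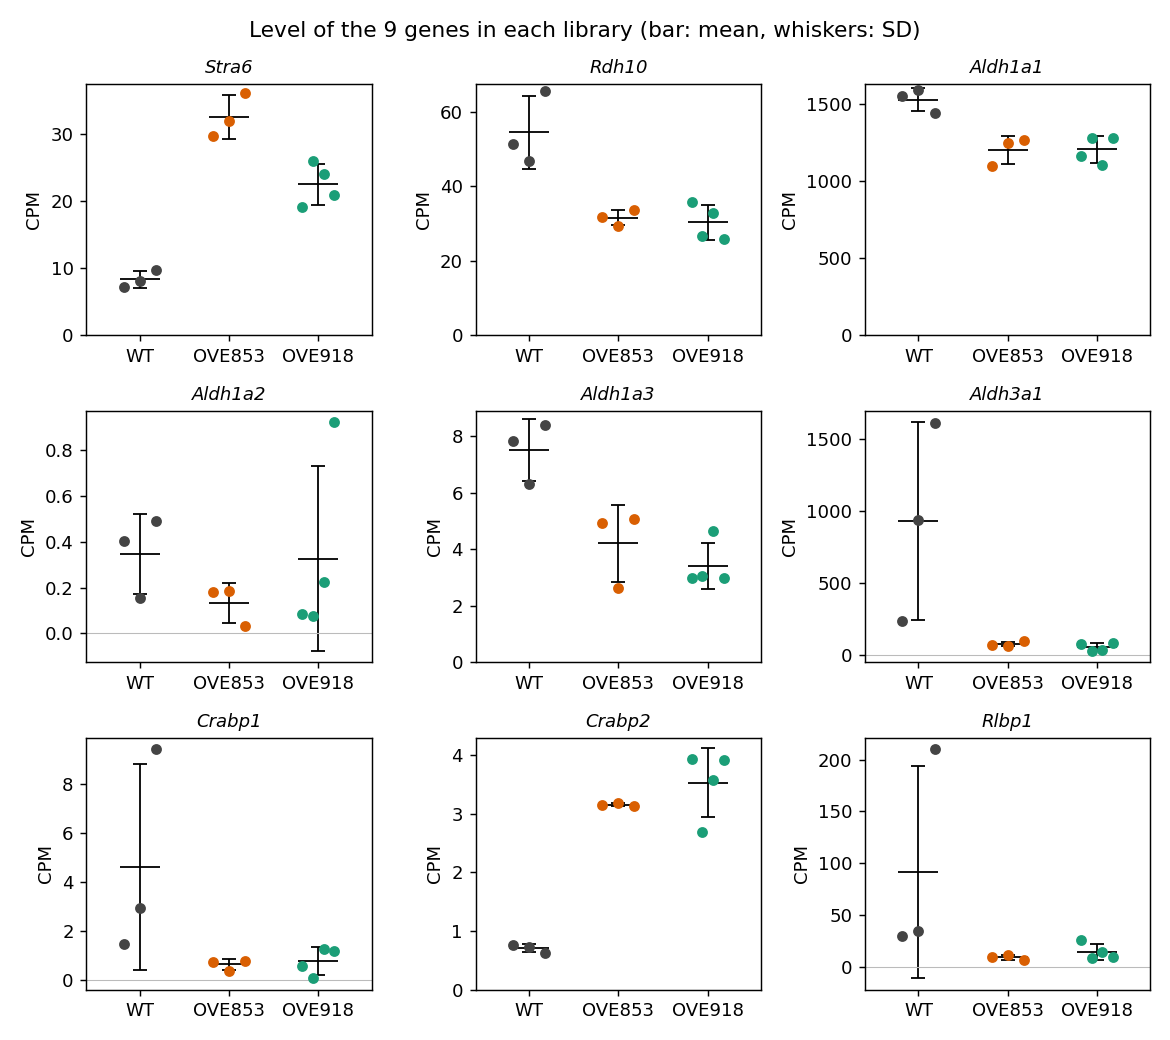
CPM of each gene (vertical axes, each with its own scale) in the 10 libraries by group, with 1 point per library, a bar at the group mean and whiskers of 1 SD. Stra6 and Crabp2 sit higher in every transgenic library than in WT, while WT libraries spread widely for Aldh3a1, Crabp1 and Rlbp1, with WT replicate 3 at 1611, 9.43 and 210 CPM.

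Of the 6 genes in the FPKM-filtered test, 4 were called in each line, 2 higher and 2 lower. Of all genes tested, 2.51% were called higher and 1.91% lower in OVE853, and 2.58% higher and 3.02% lower in OVE918. For 6 of 6 genes the libraries of each line lay entirely on one side of the WT libraries, a pattern that also held in OVE853 for 23.4% of all tested genes on the higher side and 22% on the lower, and in OVE918 for 12.3% and 14.9%. Both lines were set against the same WT libraries, so the results in the lines are not independent of each other. Over the 6 genes, log2 fold changes had a median of -0.57 (OVE853) and -0.60 (OVE918), beside -0.01 and 0.01 for all 11097 genes. In bulk tissue a lower level of a transcript can come from fewer cells of a type or from less RNA per cell, and these cannot be told apart.

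**Figure D2:**
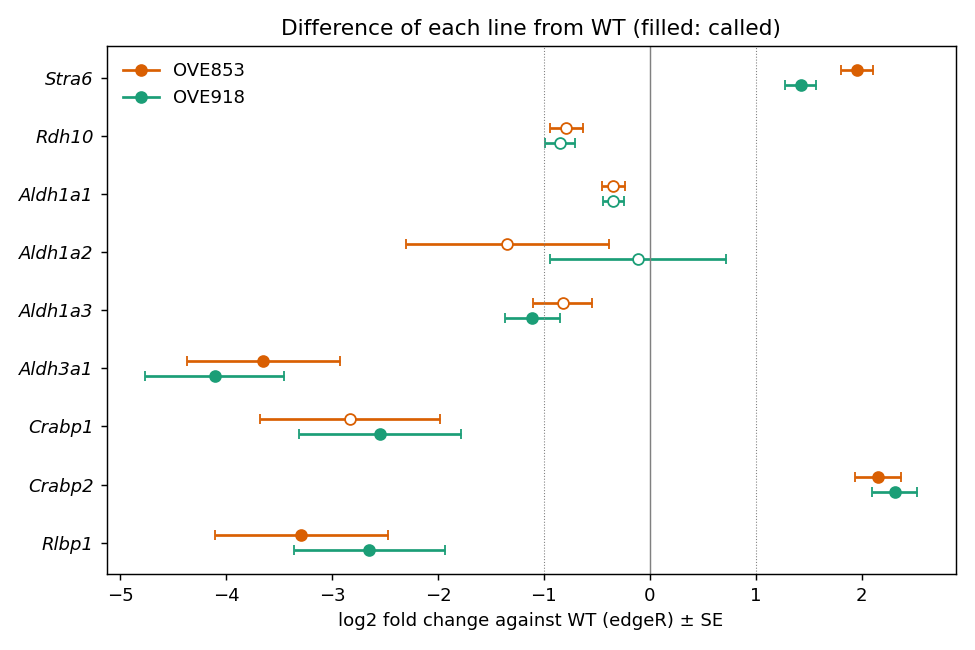
Log2 fold change of each line against WT from edgeR (horizontal axis) for each gene, with whiskers of 1 SE, filled points for called genes and dotted lines at a log2 fold change of -1 and 1. Stra6 and Crabp2 lie right of 1 with short whiskers; Aldh3a1, Crabp1 and Rlbp1 lie far left with SEs of 0.66 to 0.85.

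Stra6 encodes the membrane receptor that takes up retinol from its carrier, retinol-binding protein. The gene lies on chromosome 9 from 57970967 to 58063543 (GRCm39, plus strand). Its level was 7.24, 8.12 and 9.78 CPM in the WT libraries, 29.7, 32.1 and 36.1 CPM in OVE853, and 19.2, 26.0, 24.0 and 21.0 CPM in OVE918. The 3 groups did not overlap: WT was lowest, OVE918 intermediate and OVE853 highest. Stra6 was elevated 3.88-fold in OVE853 (log2 fold change 1.96, SE 0.15, edgeR FDR 2.53e-05) and 2.68-fold in OVE918 (log2 fold change 1.42, SE 0.14, edgeR FDR 7.04e-05). The difference between the lines had a log2 fold change of -0.53 for OVE918 against OVE853 (SE 0.13) and an edgeR FDR of 0.0763, over the threshold; this FDR ran from 0.00865 to 0.322 over 19 alternative settings and was under the threshold in 5 of them. In the filterByExpr test, whose filter Stra6 passes in all groups, the log2 fold changes were 1.97 and 1.45.

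Rdh10, the retinol dehydrogenase that makes retinaldehyde from retinol in the embryo and in many adult tissues, lies on chromosome 1 from 16175555 to 16203958 (plus strand). It stood at 51.4, 46.9 and 65.6 CPM in WT, at 31.8, 29.5 and 33.7 CPM in OVE853, and at 35.9, 26.7, 32.8 and 26.0 CPM in OVE918. Every WT library was above every transgenic library, and the lines overlapped. The log2 fold change was -0.79 (SE 0.15, edgeR FDR 0.00741) in OVE853 and -0.85 (SE 0.14, edgeR FDR 0.00187) in OVE918, past the FDR threshold and short of the fold limit in both.

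Aldh1a1, Aldh1a2 and Aldh1a3 encode the 3 retinaldehyde dehydrogenases that make retinoic acid. Per length, Aldh1a1 made up 99.2% to 99.7% of their summed FPKM in every library. It ranked between 166 and 227 by FPKM among 43274 genes with a length in all 10 libraries. Aldh1a1 (chromosome 19, 20469539 to 20622825, plus strand), an enzyme also abundant as a cytosolic protein of lens and cornea, gave 1550, 1590 and 1440 CPM in WT, 1099, 1245 and 1264 CPM in OVE853 and 1159, 1277, 1102 and 1278 CPM in OVE918. The WT libraries were all above the transgenic ones and the lines were alike in range. The log2 fold change was -0.34 in both lines (SE 0.11 in OVE853 and 0.10 in OVE918), with an edgeR FDR of 0.0569 in OVE853 and 0.0395 in OVE918. Across the alternative settings these FDRs ran from 0.00396 to 0.205 and from 0.00242 to 0.152, so the small difference lay on either side of the threshold: it was past it under 3 of 19 settings in OVE853, and short of it under 12 of 19 in OVE918.

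Aldh1a1 has a near copy, Aldh1a7, beside it on chromosome 19. Their coding sequences, of 1503 bases each, were identical at 91.6% of aligned bases, against 68.8% between Aldh1a1 and Aldh1a2 and 67.4% between Aldh1a1 and Aldh1a3. Of all 50-base stretches of the Aldh1a1 transcript 2.45% occurred unchanged in that of Aldh1a7, and of 150-base stretches 0%, so few reads of that length could match both. Aldh1a7 was at 0.0978 to 0.193 times the FPKM of Aldh1a1 and was not called, with a log2 fold change of -0.21 (edgeR FDR 0.538) in OVE853 and -0.31 (edgeR FDR 0.357) in OVE918.

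Aldh1a3 (chromosome 7, 66040638 to 66077850, minus strand) gave 7.83, 6.31 and 8.41 CPM in WT, 4.92, 2.63 and 5.07 CPM in OVE853 and 3.00, 3.05, 4.65 and 3.00 CPM in OVE918. Every transgenic library was below every WT library. In the filterByExpr test Aldh1a3 fell in OVE918 (log2 fold change -1.11, SE 0.26, edgeR FDR 0.0146), and its log2 fold change in OVE853 was -0.82 (SE 0.28, edgeR FDR 0.0730), over the threshold. Without WT replicate 3 the OVE918 value was -1.04 (edgeR FDR 0.0301). In this test 3.17% of genes were called higher and 3.72% lower in OVE853, and 3.45% and 5.34% in OVE918. Aldh1a2 (chromosome 9, 71122630 to 71203527, plus strand), the main retinoic acid-making enzyme of the early embryo, had 9, 4 and 14 counts in WT, 6, 5 and 1 in OVE853 and 2, 2, 6 and 20 in OVE918. The groups overlapped, and no difference was detectable at this depth (edgeR FDR 0.356 and 0.944, SE of the log2 fold change 0.96 and 0.83).

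Aldh3a1, best known as a highly abundant enzyme of the corneal epithelium that removes reactive aldehydes, lies on chromosome 11 from 61098363 to 61109247 (plus strand). Its WT libraries differed widely, at 236, 937 and 1611 CPM, whereas OVE853 gave 67.0, 62.6 and 92.4 CPM and OVE918 gave 75.5, 26.3, 32.9 and 80.5 CPM. All transgenic libraries were below the lowest WT library, and the lines overlapped. The highest WT library was 6.82 times the lowest, against 1.48 times in OVE853 and 3.06 times in OVE918. Per length, Aldh3a1 was at 0.530 times the FPKM of Aldh1a1 in WT replicate 1, at 2.05 and 3.89 times in WT replicates 2 and 3, and at 0.0717 to 0.254 times in the transgenic libraries. In rank by FPKM it lay between 31 and 286 in WT and between 773 and 3233 in the transgenic libraries.

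The reduction of Aldh3a1 was 12.5-fold in OVE853 (SE 0.72 on the log2 scale, edgeR FDR 0.0123) and 17.3-fold in OVE918 (SE 0.66, edgeR FDR 0.00279). Without WT replicate 3, its highest library, the reduction was 7.93-fold (edgeR FDR 0.0314) and 10.9-fold (edgeR FDR 0.00865). Without OVE853 replicate 1 the call in OVE853 was lost, at an edgeR FDR of 0.0573 and a log2 fold change of -3.58. The summed level of 5 cornea markers was lower in OVE918 than in any WT library and overlapped WT in OVE853, and its part in the result was not tested: it was 2.91, 7.92 and 18.4 CPM in the WT libraries, 1.78 to 3.03 CPM in OVE853 and 0.931 to 2.08 CPM in OVE918. Krt12, a keratin that defines corneal epithelium, stood at 0.760, 0.654 and 4.91 CPM in WT and at 0 in all 7 transgenic libraries, and Kera, of the corneal stroma, was at 0 in all 10. The means of Krt5 and Krt15 were also lower in both lines, while that of Krt14 was 0.127 CPM in WT, 0.114 CPM in OVE853 and 0.501 CPM in OVE918.

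Crabp1 and Crabp2 encode the cellular retinoic acid-binding proteins, which carry retinoic acid in the cytosol, Crabp2 also to its nuclear receptor. Their coding sequences, of 411 and 414 bases, were identical at 70.8% of aligned bases, and no 50-base stretch of Crabp1 occurred in Crabp2 (0%). Crabp2 (chromosome 3, 87855973 to 87860683, plus strand) gave 0.760, 0.731 and 0.631 CPM in WT, 3.14, 3.19 and 3.13 CPM in OVE853 and 3.94, 2.68, 3.57 and 3.92 CPM in OVE918. These levels rest on 17 to 19 counts in WT libraries and 72 to 104 in the transgenic ones, with no overlap of either line with WT. Crabp2 was elevated 4.45-fold in OVE853 (log2 fold change 2.15, SE 0.22, edgeR FDR 0.000133) and 4.97-fold in OVE918 (log2 fold change 2.31, SE 0.21, edgeR FDR 3.57e-05). In the filterByExpr test the log2 fold changes were 2.16 (edgeR FDR 0.000356) and 2.33 (edgeR FDR 9.45e-05).

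Crabp1 (chromosome 9, 54671171 to 54680403, plus strand) had 33, 77 and 269 counts in WT, 25, 10 and 23 in OVE853 and 13, 2, 34 and 26 in OVE918, or 1.48, 2.96 and 9.43 CPM in WT and at most 1.26 CPM in a transgenic library. WT replicate 3 was again highest, and all transgenic libraries were below the WT ones on the CPM scale. In the filterByExpr test the log2 fold change was -2.83 in OVE853 (SE 0.85, edgeR FDR 0.0530) and -2.55 in OVE918 (SE 0.76, edgeR FDR 0.0456), so that it was called in OVE918. Without WT replicate 3 it was called in neither line, with log2 fold changes of -1.82 (edgeR FDR 0.149) and -1.53 (edgeR FDR 0.180). Per length, Crabp2 stood at 0.449, 0.215 and 0.0583 times the FPKM of Crabp1 in the WT libraries and at 2.46 to 31.4 times in the transgenic libraries, so the more abundant of the pair differed between WT and every transgenic pool.

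Rlbp1 encodes cellular retinaldehyde-binding protein, the carrier of 11-cis retinoids in retinal pigmented epithelium and Müller glia, and lies on chromosome 7 from 79024602 to 79038176 (minus strand). It gave 29.9, 35.0 and 210 CPM in WT, 9.40, 11.7 and 6.98 CPM in OVE853 and 25.7, 8.60, 14.5 and 9.87 CPM in OVE918. Every transgenic library was below every WT library, with OVE918 replicate 1 the nearest. WT replicate 3 was 7.01 times the lowest WT library. With all libraries the log2 fold change was -3.29 in OVE853 (SE 0.82, edgeR FDR 0.0301) and -2.65 in OVE918 (SE 0.71, edgeR FDR 0.0343). Without WT replicate 3 the reduction was 3.47-fold in OVE853 (edgeR FDR 0.0204) and 2.22-fold in OVE918 (edgeR FDR 0.0726), which ended the call in OVE918.

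**Figure D3:**
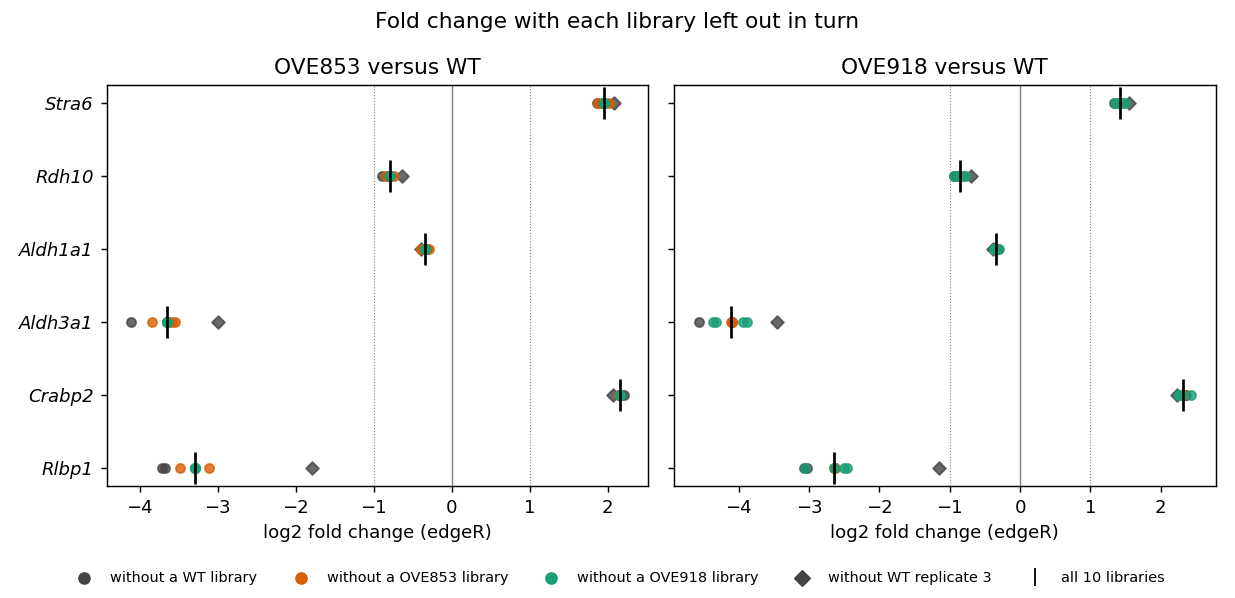
Log2 fold change from edgeR (horizontal axis) of the 6 genes of the FPKM-filtered test with all 10 libraries (black bar) and with each library left out in turn (points, coloured by the group of the library left out; diamonds, WT replicate 3). Stra6 and Crabp2 hardly move, while Rlbp1 moves from -3.29 to -1.80 in OVE853 and from -2.65 to -1.15 in OVE918 without WT replicate 3.

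Some markers of tissues that neighbour the lens moved with Rlbp1, Crabp1 and Aldh3a1, and their part in these results was not tested. Of the 9 retinal neuron markers, 9 had a lower mean in each line than in WT, with summed levels of 61.5 to 692 CPM in WT, 11.7 to 42.9 CPM in OVE853 and 16.8 to 99.5 CPM in OVE918. In the filterByExpr test 1 of the 9 was called lower in each line. The sum of OVE918 replicate 1, 99.5 CPM, lay above those of WT replicates 1 and 2, 61.5 and 75.6 CPM. The 6 Müller glia markers, also expressed by other cells of the eye, summed to 3494 to 5122 CPM in WT, 2057 to 2400 CPM in OVE853 and 2444 to 2932 CPM in OVE918. Dkk3 alone carried most of each sum, with means of 3447 CPM in WT, 1990 CPM in OVE853 and 2529 CPM in OVE918. In the filterByExpr test all 6 had a log2 fold change below 0 in each line, with 3 called lower in OVE853 and 2 in OVE918. Among the 10 markers of retinal pigmented epithelium, with sums of 58.9 to 183 CPM in WT, 39.2 to 83.1 CPM in OVE853 and 40.2 to 75.8 CPM in OVE918, the isomerase Rpe65 was at 4.52, 1.31 and 15.3 CPM in WT and at most 0.851 CPM in a transgenic library. In the filterByExpr test 3 of 9 tested markers of this list were called lower in each line. The others did not all lie lower: the mean of Tyr was 1.20 CPM in WT, 1.70 CPM in OVE853 and 2.08 CPM in OVE918, and Tyrp1, Dct, Pmel and Mlana overlapped between the groups.

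The 5 markers of non-pigmented ciliary epithelium summed to 1114, 623 and 619 CPM in the WT libraries, 228 to 288 CPM in OVE853 and 55.2 to 125 CPM in OVE918; 4 of 5 were called lower in OVE853 and 5 of 5 in OVE918. Optc alone carried most of the WT sums, with means of 574 CPM in WT, 212 CPM in OVE853 and 69.2 CPM in OVE918. In the sum of this list WT replicate 3 was not the highest WT library. It was the highest for Slc6a13 (76.9 CPM), but not for Best2, Wfdc1, Optc or Zic1. No marker of the retinal neuron, Müller glia, pigmented epithelium or ciliary lists was at 0 in a WT library. The 9 photoreceptor markers summed to 10.96 to 60.0 CPM in WT, 16.7 to 38.5 CPM in OVE853 and 25.9 to 48.3 CPM in OVE918, and the groups overlapped. The highest sum, in WT replicate 3, was carried by Crx (33.3 CPM) and Prph2 (15.7 CPM). In the filterByExpr test 6 of 8 tested photoreceptor markers had a log2 fold change above 0 in each line, with 0 called in OVE853 and 3 called higher in OVE918. Lens fiber markers overlapped too, with sums of 5174 to 14720 CPM in WT, 5942 to 30448 CPM in OVE853 and 10282 to 42309 CPM in OVE918. The 6 macrophage markers summed to 12.0 to 31.2 CPM in WT, 32.4 to 49.3 CPM in OVE853 and 22.4 to 58.5 CPM in OVE918.

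**Figure D4:**
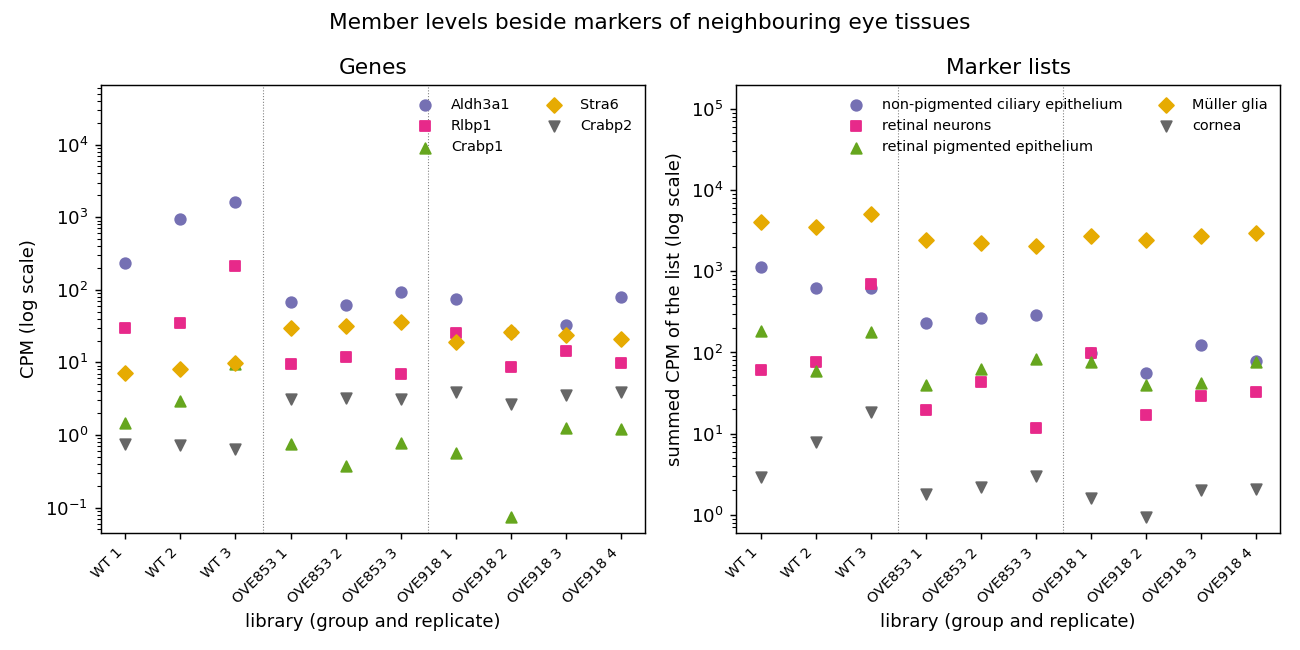
Left, CPM of Aldh3a1, Rlbp1, Crabp1, Stra6 and Crabp2, and right, summed CPM of 5 marker lists, both on log axes, for each library (horizontal axis, by group and replicate number). WT replicate 3 is the highest library for Aldh3a1, Rlbp1 and Crabp1 and for the retinal neuron (692 CPM), Müller glia (5122 CPM) and cornea (18.4 CPM) lists, and not for Crabp2. Most of each Müller glia sum is Dkk3.

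Stra6 and Crabp2 showed none of this dependence on WT replicate 3. Without that library Stra6 was 4.24-fold higher in OVE853 (edgeR FDR 2.19e-05) and 2.93-fold higher in OVE918 (edgeR FDR 6.90e-05). For Crabp2 the values were 4.21-fold (edgeR FDR 0.000604) and 4.70-fold (edgeR FDR 0.000200).

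Between the lines, 0 of the 6 genes were called (0.0721% of all tested genes were called higher in OVE918 than in OVE853 and 0.415% lower). At an unadjusted edgeR p under 0.05, 1 gene passed, Stra6, where 22.9% of all tested genes did. It was also the only one of the 6 whose libraries did not overlap between the lines, where 13.4% of all tested genes lay entirely higher and 16.2% entirely lower in OVE918. The other log2 fold changes of OVE918 against OVE853 were -0.06 for Rdh10 (SE 0.14), 0.00 for Aldh1a1 (SE 0.10), -0.46 for Aldh3a1 (SE 0.61), 0.16 for Crabp2 (SE 0.18) and 0.64 for Rlbp1 (SE 0.73), so that for Aldh3a1 and Rlbp1 a difference of 2-fold between the lines was within about 2 SE.

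The rest of the pathway was described by 7 lists with 76 further genes, 36 of which were tested and 11 of which stand in more than 1 list. Of these, 5 were called in OVE853 (2 higher, 3 lower) and 7 in OVE918 (2 higher, 5 lower), where 2.51% of all tested genes were called higher and 1.91% lower in OVE853, and 2.58% and 3.02% in OVE918. The counts were 3 and 5 without WT replicate 3. The higher calls included Tgm2, which passed the expression limit through the transgenic libraries alone. Over the 36 tested genes the median log2 fold change was -0.20 and -0.15, near that of all genes. All 6 nuclear receptors of retinoic acid and its isomers were tested and 0 were called in either line; Rara, the most abundant at 14.9 FPKM over all libraries, had a log2 fold change of 0.75 in OVE853 (edgeR FDR 0.0112) and 0.45 in OVE918 (edgeR FDR 0.0601). At an unadjusted p under 0.05, edgeR gave 3 of 6 receptors in OVE853 (Rara, Rarb and Rxrg) and 2 of 6 in OVE918 (Rara and Rarb), where 34.1% and 33.2% of all tested genes passed that limit. The 3 in OVE853 also reached an FDR of 0.05 or lower and fell short of the fold limit alone, against 0 in OVE918. In the filterByExpr test 2 receptors did so in OVE853 and 0 in OVE918.

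**Figure D5:**
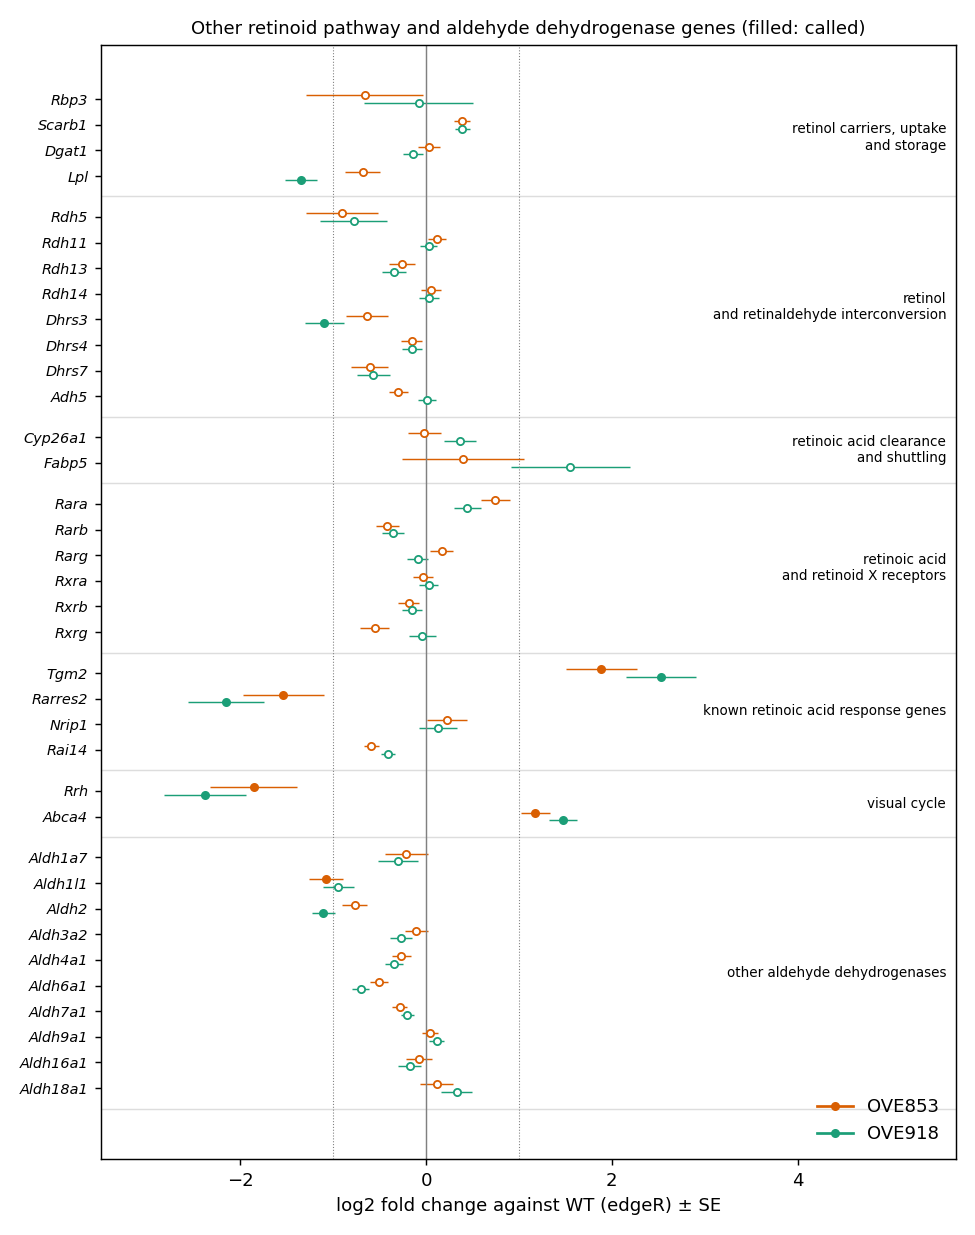
Log2 fold change against WT from edgeR (horizontal axis, whiskers 1 SE) of the 36 tested pathway genes, grouped by list, each gene drawn 1 time under the first list that holds it; filled points are called. Tgm2 and Abca4 lie right of 1 in both lines, Rarres2 and Rrh left of -1, and the 6 receptors between -1 and 1.

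Of the carriers and uptake genes 0 of 4 tested were called in OVE853 and 1 in OVE918. This was Lpl, the lipoprotein lipase, which fell 2.54-fold in OVE918 (edgeR FDR 0.000373). Scarb1, the most abundant of the list and a carotenoid and lipoprotein receptor, had a log2 fold change of 0.38 and 0.39, under the fold limit.

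Among enzymes that interconvert retinol and retinaldehyde, 0 of 8 tested were called in OVE853 and 1 in OVE918. This was Dhrs3, which reduces retinaldehyde back to retinol, at 25.2, 29.1 and 47.2 CPM in WT, 23.6, 18.8 and 23.0 CPM in OVE853 and 17.6, 13.1, 14.2 and 18.6 CPM in OVE918. It was 2.13-fold lower in OVE918 (edgeR FDR 0.00403), and without WT replicate 3 the difference was 1.72-fold, under the fold limit. Adh5, the most abundant of the list, was not called. Cyp26a1, which degrades retinoic acid and is itself a target of it, was at 23.8 to 41.1 CPM in WT, 26.2 to 35.0 CPM in OVE853 and 36.7 to 42.2 CPM in OVE918, with overlap and edgeR FDRs of 0.959 and 0.161. Fabp5, a fatty acid-binding protein that also binds retinoic acid and the most abundant of its list, ranged from 404 to 3476 CPM with overlapping groups and was not called.

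Among 7 tested genes known to respond to retinoic acid, 1 rose and 1 fell in OVE853, and 1 rose and 2 fell in OVE918. Tgm2, tissue transglutaminase, is a retinoic acid target and also a TGF-β target. It gave 2.37, 2.42 and 7.05 CPM in WT, 15.7, 10.5 and 18.0 CPM in OVE853 and 21.5, 19.3, 24.0 and 27.7 CPM in OVE918. All transgenic libraries were above WT, by 3.70-fold in OVE853 (edgeR FDR 0.0103) and 5.79-fold in OVE918 (edgeR FDR 0.00107). Tgm2 passed the FPKM limit through the transgenic libraries alone, at 0.659 to 1.96 FPKM in WT and at least 2.92 FPKM in these. Its difference is thus in part built into that filter. With WT replicate 3, the highest WT library for Tgm2, left out, the values were 6.15-fold (edgeR FDR 0.000128) and 9.61-fold (edgeR FDR 1.6e-05). In the filterByExpr test without that library the log2 fold changes were 2.59 (edgeR FDR 0.000112) and 3.27 (edgeR FDR 1.07e-05). Rarres2, which encodes the chemoattractant chemerin and is the most abundant of the list, fell 2.90-fold in OVE853 (edgeR FDR 0.0418) and 4.45-fold in OVE918 (edgeR FDR 0.00522), and without WT replicate 3 the OVE853 value was 2.03-fold with an edgeR FDR of 0.107. Dhrs3, described above, was the other gene that fell in OVE918.

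In the visual cycle list 1 of 5 tested genes was called higher and 1 lower in each line. Abca4, the retinoid flippase of photoreceptors, gave 56.1, 42.6 and 43.3 CPM in WT, 115, 99.7 and 106 CPM in OVE853 and 146, 106, 121 and 154 CPM in OVE918. It was 2.26-fold higher in OVE853 (edgeR FDR 0.000703) and 2.78-fold higher in OVE918 (edgeR FDR 7.19e-05), with no overlap with WT. Rrh, an opsin of retinal pigmented epithelium, fell 3.62-fold (edgeR FDR 0.0256) and 5.19-fold (edgeR FDR 0.00390), and without WT replicate 3 by 2.01-fold (edgeR FDR 0.0465) and 2.88-fold (edgeR FDR 0.00305).

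With the filter on counts, 56 of the 76 genes were tested, and 10 were called in OVE853 and 14 in OVE918, where 3.17% of all 18058 genes were called higher and 3.72% lower in OVE853, and 3.45% and 5.34% in OVE918. Without WT replicate 3, 57 were tested and the counts were 8 and 13. Rpe65, called lower in both lines with all libraries, was then not called in OVE853 (edgeR FDR 0.113), nor were Aldh1l1 and Rarres2. In OVE918 Aldh2 and Dhrs3 were no longer called. Both counts include Adh1, which was not tested with all libraries. Adh1 had 4 to 20 counts in WT, 3 to 8 in OVE853 and 1 to 5 in OVE918. Its lower value in the lines can thus be in part built into the filter on counts. The added genes included Ttr, the thyroxine and retinol carrier transthyretin, at 18.9, 7.08 and 51.1 CPM in WT and 0 to 0.593 CPM in the transgenic libraries. Rgr, a retinal opsin, was at 17.4, 6.42 and 62.1 CPM in WT and 0.372 to 1.94 CPM in the transgenic libraries. WT replicate 3 was the highest library for both. Without it the log2 fold changes in OVE853 and OVE918 were -4.74 and -6.10 for Ttr (edgeR FDR 0.000454 and 5.74e-05). For Rgr they were -3.37 and -3.40 (edgeR FDR 0.00500 and 0.00169). Ttr, Rgr, Rpe65 and Lrat also stand in the marker list of retinal pigmented epithelium. Rarres1 (log2 fold change 2.26 and 2.27) and Aldh1l2 (1.20 and 1.99) were called higher in both lines. Rbp4, the blood carrier of retinol, was called higher in OVE918 (2.57), and Akr1b10, a retinaldehyde reductase, lower in OVE918 (-1.86). Rarres1 had 6 to 12 counts in WT libraries, 39 to 81 in OVE853 and 41 to 55 in OVE918. Rbp4 had 2 to 9 counts in WT, 4 to 11 in OVE853 and 17 to 52 in OVE918. With so few counts outside the groups where they were high, both differences can be in part built into the filter on counts.

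Of the other aldehyde dehydrogenases 10 were tested, of which 8 had a mean fold change below 0 in each line, 1 was called lower in OVE853 and 1 in OVE918. Aldh2, the mitochondrial enzyme that clears acetaldehyde, gave 86.2, 90.0 and 128 CPM in WT, 55.9, 59.3 and 63.5 CPM in OVE853 and 47.7, 48.5, 46.6 and 45.6 CPM in OVE918. The 3 groups did not overlap, and the log2 fold change was -0.77 (edgeR FDR 0.00445) and -1.11 (edgeR FDR 0.000163). Without WT replicate 3 it was -0.57 and -0.90, both under the fold limit. Aldh1l1, a folate enzyme, was called in OVE853 at -1.08 (edgeR FDR 0.00329) and not in OVE918 at -0.95 (edgeR FDR 0.00255), where only the fold limit separates the values; the difference between the lines was 0.13 (SE 0.17). Without WT replicate 3 its OVE853 value was -0.90. Aldh7a1, the most abundant of the list, had values of -0.28 and -0.20.

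For each of the 6 genes the tested genes with the most similar profile of log2 CPM over the 10 libraries were listed, as a description; the points share libraries and split into WT and transgenic pools. Stra6 was nearest to Tha1 (Pearson r = 0.99), Lbp (0.98) and Cfi (0.98), the last 2 encoding a lipopolysaccharide-binding protein and a complement regulator. Among the genes nearest to Crabp2 were Cpxm2 (0.99) and Tgfbi (0.99), the latter named for its induction by TGF-β. Aldh3a1 was nearest to Ecrg4 (0.99), Gpsm3 (0.98) and Mrps6 (0.98). Rlbp1 was nearest to Tspyl1 (0.99), Slc1a3 (0.99) and 6430548M08Rik (0.98), of which Slc1a3, a glial glutamate transporter, is in the Müller glia list. Rdh10 was nearest to Ipo13 (0.98) and Dennd1a (0.97), and Aldh1a1 to Maea (0.95) and Gm33088 (0.95).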

How the data were processed

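RNA-seq libraries of lens epithelium (3 WT, 3 OVE853, 4 OVE918) were analysed from the deposited table of raw counts. The authors used cutadapt 5.2 for trimming, STAR 2.7.11b for alignment to GRCm39 and featureCounts 2.0.8, set to reverse-stranded, for gene counts, which they deposited unnormalized and not pooled. Samples were matched to columns by the short names in their descriptions.

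The tests were run with edgeR 4.0.16 under R 4.3.3 (TMM, robust quasi-likelihood fit of 3 groups, Benjamini-Hochberg adjustment over all genes tested), after the study's methods. Genes needed 2 FPKM in 5 of 10 libraries, with exon-union lengths from GENCODE vM39 matched by symbol (43274 of 50763 genes), whereas the study used RefSeq lengths; genes below this were taken from a filterByExpr fit. CPM used TMM-scaled library sizes, and SE was the log2 fold change over the square root of F. Library totals, and the spread between pools, set the precision. Alternatives were DESeq2 1.42.0, limma 3.58.1 weights, other normalizations and filters, and leaving out each library. The scripts were tested on simulated data. The 9 genes, the 7 pathway lists and the 10 marker lists were chosen with earlier results of these data known. The text names all 9 genes, the called and most abundant genes of each pathway list, marker genes where a result turned on them, and the most similar profiles; some genes that these rules name are not reported here, and the pathway counts leave them out. Equal replicate numbers did not mark paired samples: correlations of deviations ran from -0.30 to 0.08 over 9 pairs.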

Additional observations from a re-analysis of the deposited data

Results flagged for a closer look

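Aldh1a3 in OVE918 had 1 library far from the others: replicate 3 stood at 4.65 CPM while the other 3 lay between 3.00 and 3.05 CPM, so that the gap made up 0.966 of the range of the group. Chance alone puts about 1 in 20 groups past the limit used for flagging, and the share of groups that would reach 0.966 was not worked out. The library remained below the lowest WT value of 6.31 CPM.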

How the results depend on the processing

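Of 348 alternative values for single genes, 17 lost a call, 0 gained one and 0 called values changed sign. Among uncalled differences near 0 between the lines, 8 changed sign (5 for Aldh1a1, 3 for Rdh10). These values leave out glmTreat, whose lost calls are given below, and calling by FDR alone. By FDR alone, Rdh10 in both lines and Aldh1a1 in OVE918 would also be called. Stra6 and Crabp2 kept their calls under each alternative run in both lines except that, against a fold of 2 with glmTreat, Stra6 was not called in OVE918. The 4 genes called in OVE853 became 2 (Stra6 and Crabp2) with glmTreat and 2 with a replicate block; in OVE918 glmTreat gave 2 (Aldh3a1 and Crabp2). Leaving out each library in turn gave 2 to 4 called genes in OVE853, 3 to 4 in OVE918 and 0 between the lines each time. Rlbp1 lost its call under 6 of 18 alternatives in OVE853 and 8 of 18 in OVE918, and DESeq2 gave it no adjusted p. For the other pathway genes, filterByExpr gave 10 calls in OVE853 and 14 in OVE918, and leaving out libraries gave 3 to 6 in OVE853 (3 without WT replicate 3 or without any 1 of the OVE853 libraries), 5 to 9 in OVE918 and 0 between the lines. The pathway result with the replicate block and the filterByExpr tests without WT replicate 3 were chosen after seeing the data. With the replicate block Aldh3a1 in OVE853 had an edgeR FDR of 0.0535 and Rlbp1 of 0.114; equal numbers do not pair these samples. Where not stated, the cause of a lost call was not tested. Levels of 17 to 19 counts, as for Crabp2 in WT, or 1 to 20, as for Aldh1a2, limit what depth can show.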
